A study of Mus musculus with 2 samples.

Results

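The 35 genes described here encode lysosomal hydrolases and their activators, lysosomal membrane proteins, subunits of the lysosomal proton pump and the MiT transcription factors. They were chosen by gene symbol, from knowledge of the organelle, out of the 27998 genes in the count tables, and all 35 were found in both libraries. Earlier results of these data were known at that point. The shares of members past 2-fold given below may therefore not be independent of the choice. By role the 35 genes comprise 15 hydrolases and activators, 9 membrane proteins (with progranulin placed among them), 7 pump genes and 4 MiT factors. The comparison was between diets, with 1 single-cell library each: a high-fat diet (HFD) library from mice fed that diet for 12 weeks, and a normal chow diet (NCD) library. Both came from the epididymal white fat of male wild-type C57BL/6J mice aged 18 weeks. The stromal vascular fraction, which is what remains of fat after the adipocytes are removed, was released with 1 mg/ml collagenase for 30 min at 37 °C. The number of mice behind each library is not given in the sources used here. Because each diet has 1 library, diet and library cannot be told apart, no test of a diet difference was possible, and every interval below covers counting error only.

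Lysosomes are acidic compartments in which lipids, glycans and proteins taken up from outside or delivered by autophagy are broken down. The vacuolar ATPase pumps protons across the lysosomal membrane with a membrane sector, V0, and a catalytic sector, V1, and soluble hydrolases work at the pH it sets. In mouse and human cells Mitf, Tfeb and Tfe3 bind E-box-like elements in the promoters of many lysosomal genes. In the fat of obese mice, macrophages that gather around dying adipocytes are known for lysosomal breakdown of lipid.

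The HFD library held 18623508 UMIs (unique molecular identifiers, each counting 1 captured RNA molecule) in 6840 barcodes, and the NCD library held 33825653 UMIs in 7365 barcodes. The median was 2020 UMIs per HFD barcode and 4230 per NCD barcode, and 64 barcodes occurred in both libraries. After filtering, 6447 HFD and 7162 NCD cells were clustered without the 35 genes and named from markers that include none of them. Macrophages numbered 2290 HFD and 2241 NCD cells, dendritic cells 167 and 319, and progenitors (fibroblast-like stromal cells) 3031 and 3256. Every marker of these 3 classes lay above its library-wide level in both libraries, which is no independent check because the names came from these same markers. Markers of other cell types, read here as free RNA, stood at different levels in the libraries. The 15 stromal marker genes stood at a median of 30.3% of their library level in HFD macrophages and 4.73% in NCD macrophages, and 7 macrophage marker genes stood at 22.8% in HFD progenitors and 2.65% in NCD progenitors. These class-wide shares hide differences between clusters, such as 53.6% in HFD progenitor cluster 1.1 and 4.60% in cluster 5.1. They also cannot tell free RNA from mixed cells or remaining doublets, in any class.

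The promoters of the members were inspected for the MiT element, because all 4 factors belong to the set. A RefSeq window (GRCm38.p6, 250 bases before to 50 bases after the start) was on hand for 31 members. The full CLEAR element, a longer palindrome that the MiT factors bind, was in 0 of 31 member windows and in 0.370% of 27025 genes. Its core TCACGTGA was in 4 of 31 member windows (12.9%), those of Gla, Mcoln1, Atp6v0d1 and Atp6v1a, and in 1.12% of all genes. The shorter E-box CACGTG, which lies inside both longer motifs, was in 6 of 31 windows (19.4%), with Glb1 and Lamp1 added, and in 8.09% of all genes. All 3 motifs read the same on both strands. The stretches below lie before the annotated start and are shown because Gla is the motif-bearing member whose level differed most between the HFD and NCD macrophages, while Lamp1 holds 4 E-boxes in a short span and Glb1 holds 1. Capitals mark the motif (TCACGTGA where present, otherwise CACGTG), and each is written 5′ to 3′ on the gene's own strand. They cover chrX:134601181-134601245 on the minus strand, chr8:13159088-13159160 on the plus strand and chr9:114401018-114401047 on the plus strand.
Gla: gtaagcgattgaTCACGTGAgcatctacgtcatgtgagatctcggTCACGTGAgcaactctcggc
Lamp1: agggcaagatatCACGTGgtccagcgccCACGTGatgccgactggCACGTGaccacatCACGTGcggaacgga
Glb1: ctgcttctgagtCACGTGgcctacagaggc
A match in these windows is a description of the letters, not of binding.

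In macrophages, 10 of the lysosomal genes differed by at least 2-fold between the diets and most did not. Gpnmb, Atp6v0d2, Acp5, Lipa, Gla, Cd68, Gusb and Atp6v1b2 lay at least 2-fold higher in HFD macrophages, and the MiT factors Tfe3 and Tfec lay at least 2-fold lower. Of the 35 members, 34 reached 10 CPM (UMIs of a gene per 1000000 UMIs of the class) in either library and were counted. The 8 higher ones were 23.5% of those counted, beside 9.55% of all 7487 genes counted in macrophages, and the 2 lower ones were 5.88%, beside 10.4%. In either direction 19.9% of all genes were past 2-fold. The other 24 were within 2-fold, and the median log2 ratio was 0.17 over the members and -0.07 over all counted genes. Of the 8 higher members, 6 had a promoter window, and only Gla among those 6 held an E-box.

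**Figure D1:**
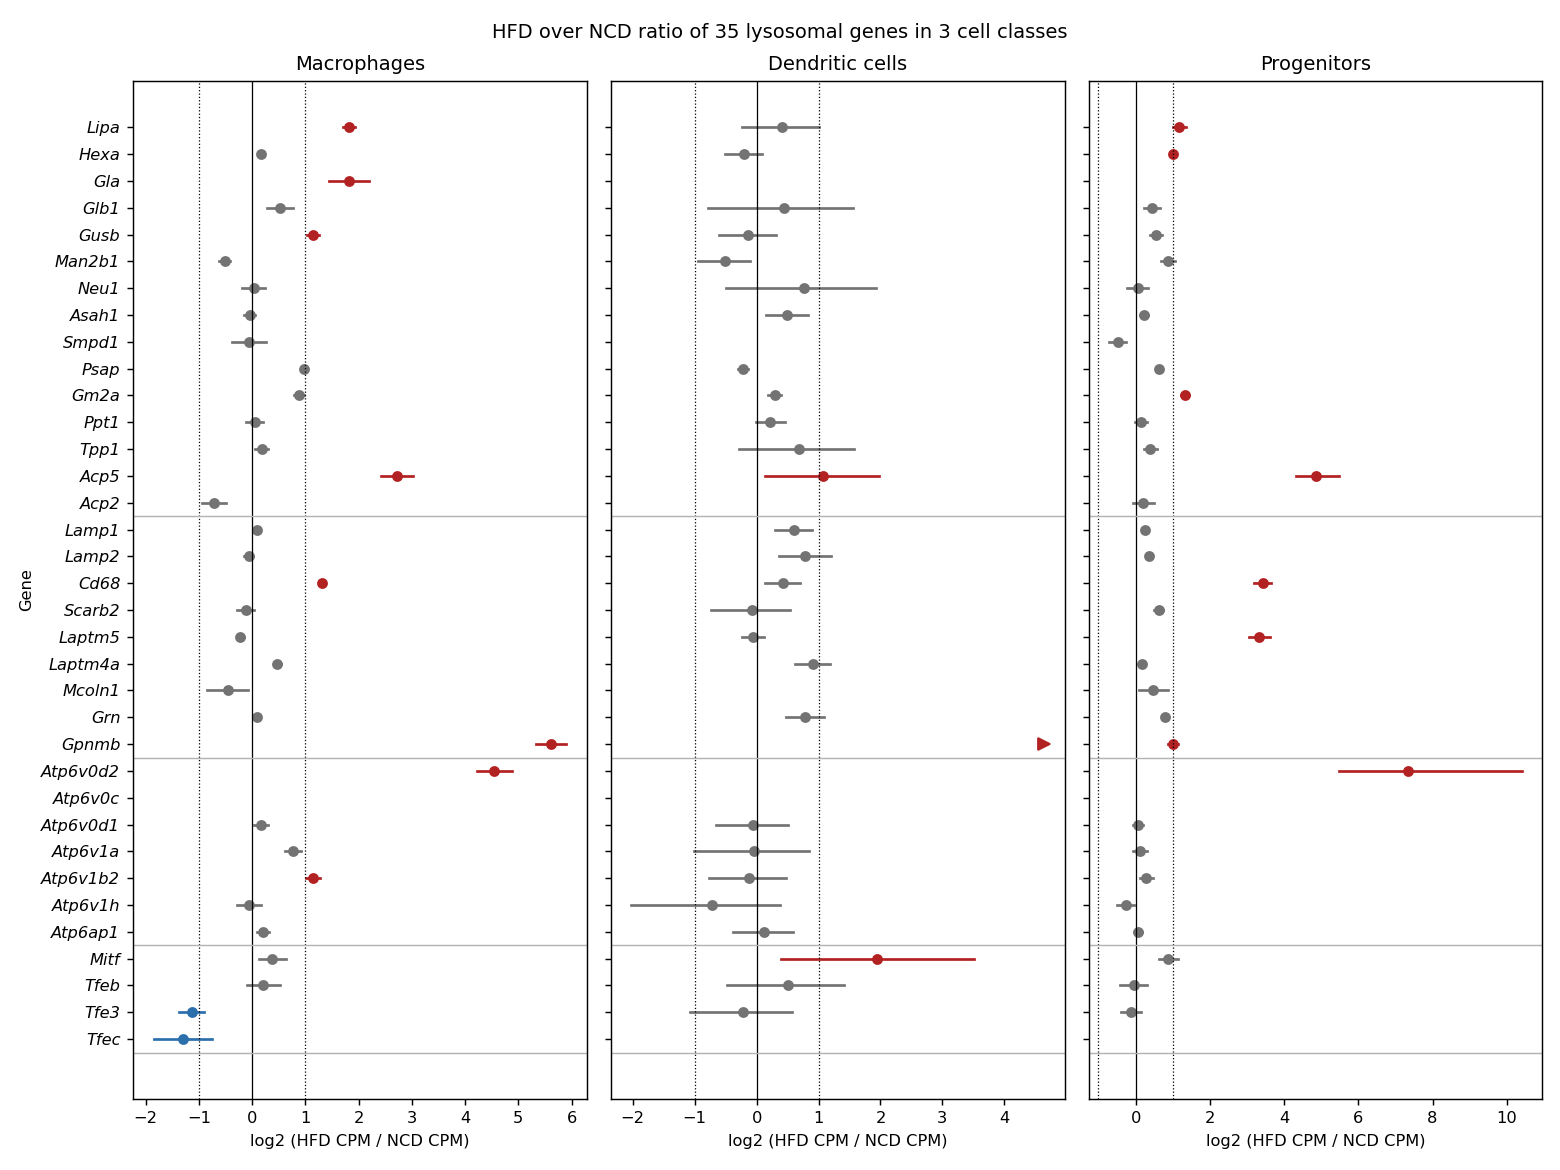
Each point is the log2 ratio of HFD to NCD CPM of a gene (down the page, by role) in macrophages, dendritic cells and progenitors, with its 95% counting interval. Dotted lines mark 2-fold, red and blue mark ratios past it, an arrowhead is a lower bound, the x ranges differ between panels, and genes without a point did not reach 10 CPM in either library. Gpnmb and Atp6v0d2 stand far to the right in macrophages (5.61 and 4.55), while most other members cluster around 0.

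Among the hydrolases, those past 2-fold handle neutral lipid, glycolipid, glycan and phosphate substrates. Lipa, the acid lipase that splits cholesteryl esters and triglycerides, gave 371 CPM in HFD macrophages and 106 CPM in NCD macrophages, a ratio of 3.52 (95% interval 3.26 to 3.79). Acp5, the tartrate-resistant acid phosphatase best known from osteoclasts, gave 81.7 and 12.4 CPM, a ratio of 6.59 (5.36 to 8.16). Gusb, which removes glucuronic acid from glycosaminoglycans, gave 233 and 105 CPM (ratio 2.22, 2.04 to 2.40). All 3 intervals lie above a ratio of 2. Gla, the galactosidase that degrades globotriaosylceramide, reached 33.3 CPM against 9.47 CPM. Psap, the precursor of the saposins that present sphingolipids to hydrolases, gave the most UMIs of the group, with 3138 CPM in HFD macrophages against 1591 CPM in NCD macrophages. Its ratio of 1.97 (1.93 to 2.01) stopped just short of 2, as did that of the ganglioside activator Gm2a at 1.84 (324.6 against 177 CPM). Hexa, the alpha subunit of hexosaminidase, had the second-most UMIs and barely differed, at 793 and 705 CPM. The acid ceramidase Asah1, the thioesterase Ppt1, the sialidase Neu1 and the sphingomyelinase Smpd1 had ratios between 0.96 and 1.03, and the peptidase Tpp1 and the galactosidase Glb1 had 1.13 and 1.44. The mannosidase Man2b1 and the phosphatase Acp2 were lower in HFD macrophages, with ratios of 0.70 and 0.61, within 2-fold. Summed over the 15 genes, the hydrolases took 5755 CPM in HFD and 3552 CPM in NCD macrophages, of which Psap alone supplied 3138 and 1591 CPM.

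Among the membrane proteins, Gpnmb and Cd68 were past 2-fold and the structural proteins of the organelle were not. Gpnmb, a transmembrane glycoprotein of lysosomes and melanosomes, showed the largest ratio of the 34 counted members in macrophages. It gave 577 CPM (4002 UMIs) in HFD macrophages and 11.8 CPM (105 UMIs) in NCD macrophages, a ratio of 48.7 (40.1 to 59.7). Cd68, a heavily glycosylated relative of the LAMP proteins, gave 1239 CPM against 496 CPM (ratio 2.50, 2.41 to 2.59). Lamp1, which with Lamp2 makes up much of the lysosomal membrane protein, gave 842 CPM in HFD and 792 CPM in NCD macrophages, and Lamp2 gave 316 and 330 CPM. Progranulin (Grn), a secreted and lysosomal regulator of hydrolases, likewise gave 977 and 916 CPM. Laptm4a, Laptm5, Scarb2 (the receptor that carries glucocerebrosidase to lysosomes) and the calcium channel gene Mcoln1 had ratios of 1.39, 0.86, 0.92 and 0.73. Of the HFD level of Laptm4a, 39.9% was expected from free progenitor RNA, and its log2 ratio was 0.48 before and 0.07 after that was subtracted. Summed membrane-protein levels were 5005 CPM in HFD and 3541 CPM in NCD macrophages. Cd68 supplied 1239 and 496 CPM of these sums and Gpnmb 577 and 11.8 CPM.

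The proton pump genes differed in size of ratio from subunit to subunit, and the median log2 ratio of the 6 counted ones was 0.48. Atp6v0d2, which encodes the d2 isoform of the V0 d subunit and is known from osteoclasts and kidney, gave 216 CPM (1499 UMIs) in HFD macrophages and 9.25 CPM (82 UMIs) in NCD macrophages, a ratio of 23.4 (18.7 to 29.6). Its widely expressed counterpart Atp6v0d1 gave 122 CPM in HFD macrophages and 108 CPM in NCD macrophages. Of all UMIs of the d isoforms, Atp6v0d2 therefore supplied 64.0% (62.0 to 66.0) in HFD macrophages and 7.86% (6.30 to 9.66) in NCD macrophages. The B subunit Atp6v1b2 of the catalytic sector gave 190 and 86.3 CPM (ratio 2.21, 2.02 to 2.41), and the A subunit Atp6v1a gave 131 and 77.2 CPM (1.70). Atp6v1h and the accessory subunit Atp6ap1 had ratios of 0.96 and 1.15. Summed, the pump genes took 876 CPM in HFD and 480 CPM in NCD macrophages, a ratio of 1.83. Of these sums Atp6v0d2 alone supplied 216 and 9.25 CPM. Atp6v0c, the proteolipid subunit, had only 15 HFD and 36 NCD UMIs and was not counted. Its annotated processed copies Atp6v0c-ps1 and Atp6v0c-ps2 are not in the count table, so reads shared with them may be missing and its level is uncertain.

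The MiT factors, which act upstream of many of these genes, were split in direction, with Mitf and Tfeb higher within 2-fold and Tfe3 and Tfec past 2-fold lower in HFD macrophages. Mitf gave 38.5 CPM in HFD and 29.7 CPM in NCD macrophages (ratio 1.30, 1.09 to 1.54), and Tfeb gave 23.8 and 20.5 CPM (1.16, 0.93 to 1.44). Tfe3 gave 30.7 CPM in HFD macrophages against 67.5 CPM in NCD macrophages, a ratio of 0.45 (0.39 to 0.53). Tfec, the member of the family restricted largely to macrophage lineages, gave 5.62 CPM (39 UMIs) against 13.8 CPM (122 UMIs), a ratio of 0.41 (0.28 to 0.59). Tfe3 supplied 31.1% of the MiT UMIs in HFD macrophages and 51.4% in NCD macrophages, whereas Mitf supplied 39.0% and 22.6%. These shares compare UMIs of different genes, which can be captured with different efficiency, so only their difference between cells is read.

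**Figure D2:**
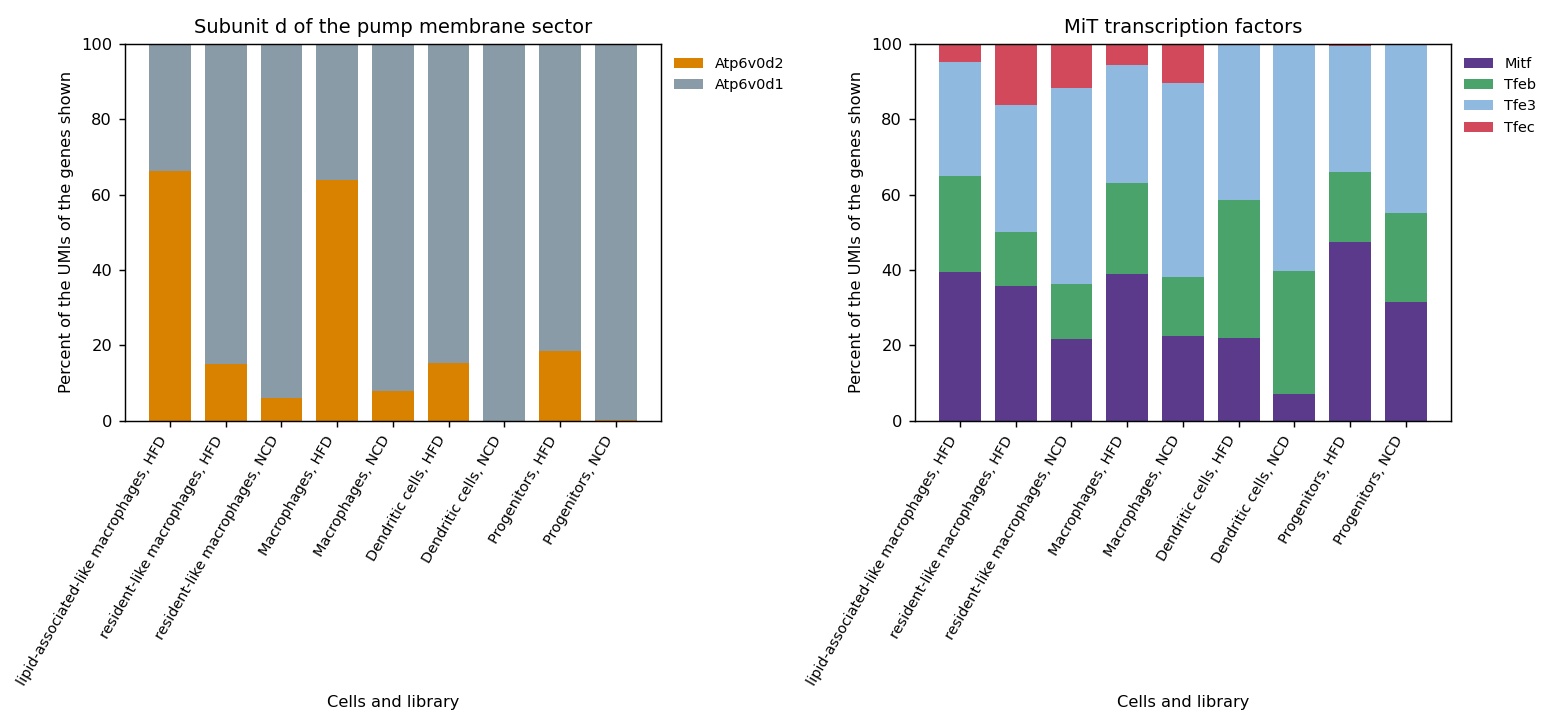
Stacked bars give the percent of UMIs supplied by Atp6v0d2 and Atp6v0d1 (left) and by the 4 MiT factors (right) in the cells and library named below each bar. Atp6v0d2 supplies 64.0% of the d-isoform UMIs in HFD macrophages and 7.86% in NCD macrophages, and the Tfe3 share is smaller in HFD than in NCD macrophages.

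Macrophage clusters showed which cells carried these levels. The state of a cluster was read from 8 lipid-associated markers (Trem2, Spp1, Cd9, Lpl, Mmp12, Fabp5, Itgax and Ctsk, the last itself a lysosomal protease) and 7 resident markers (among them Lyve1, Timd4 and Folr2). The 4 lipid-associated-like clusters held 2116 HFD and 22 NCD cells, and the 3 resident-like clusters held 156 HFD and 1923 NCD cells, so state nearly coincided with library. The level of the lysosomal genes was not uniform among the lipid-associated-like cells. In HFD cluster 6.0 Gpnmb gave 1033 CPM, in cluster 8.0 it gave 655 CPM, in cluster 6.2 it gave 345 CPM and in cluster 7.0 only 128 CPM. These clusters also differed otherwise. Cluster 8.0 had all 4 cycling-cell markers raised. Cluster 7.0 had only 4 of the 8 lipid-associated markers raised, against 8 in cluster 6.0 and 7 in clusters 6.2 and 8.0. Cluster 6.0 was also the highest in Atp6v0d2 (344 CPM, against 147 to 200 CPM in the other 3), Lipa (522 against 252 to 396 CPM) and Psap (4029 against 2704 to 2745 CPM). Summed over all 35 genes it reached 14182 CPM, against 9992 to 11115 CPM in the other lipid-associated-like clusters. Cluster 6.2, the largest with 1017 cells, carried stromal markers at 67.5% of their library level, against 7.17 to 21.9% in clusters 6.0, 7.0 and 8.0, and the part of free RNA in its lower levels was not tested.

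**Figure D3:**
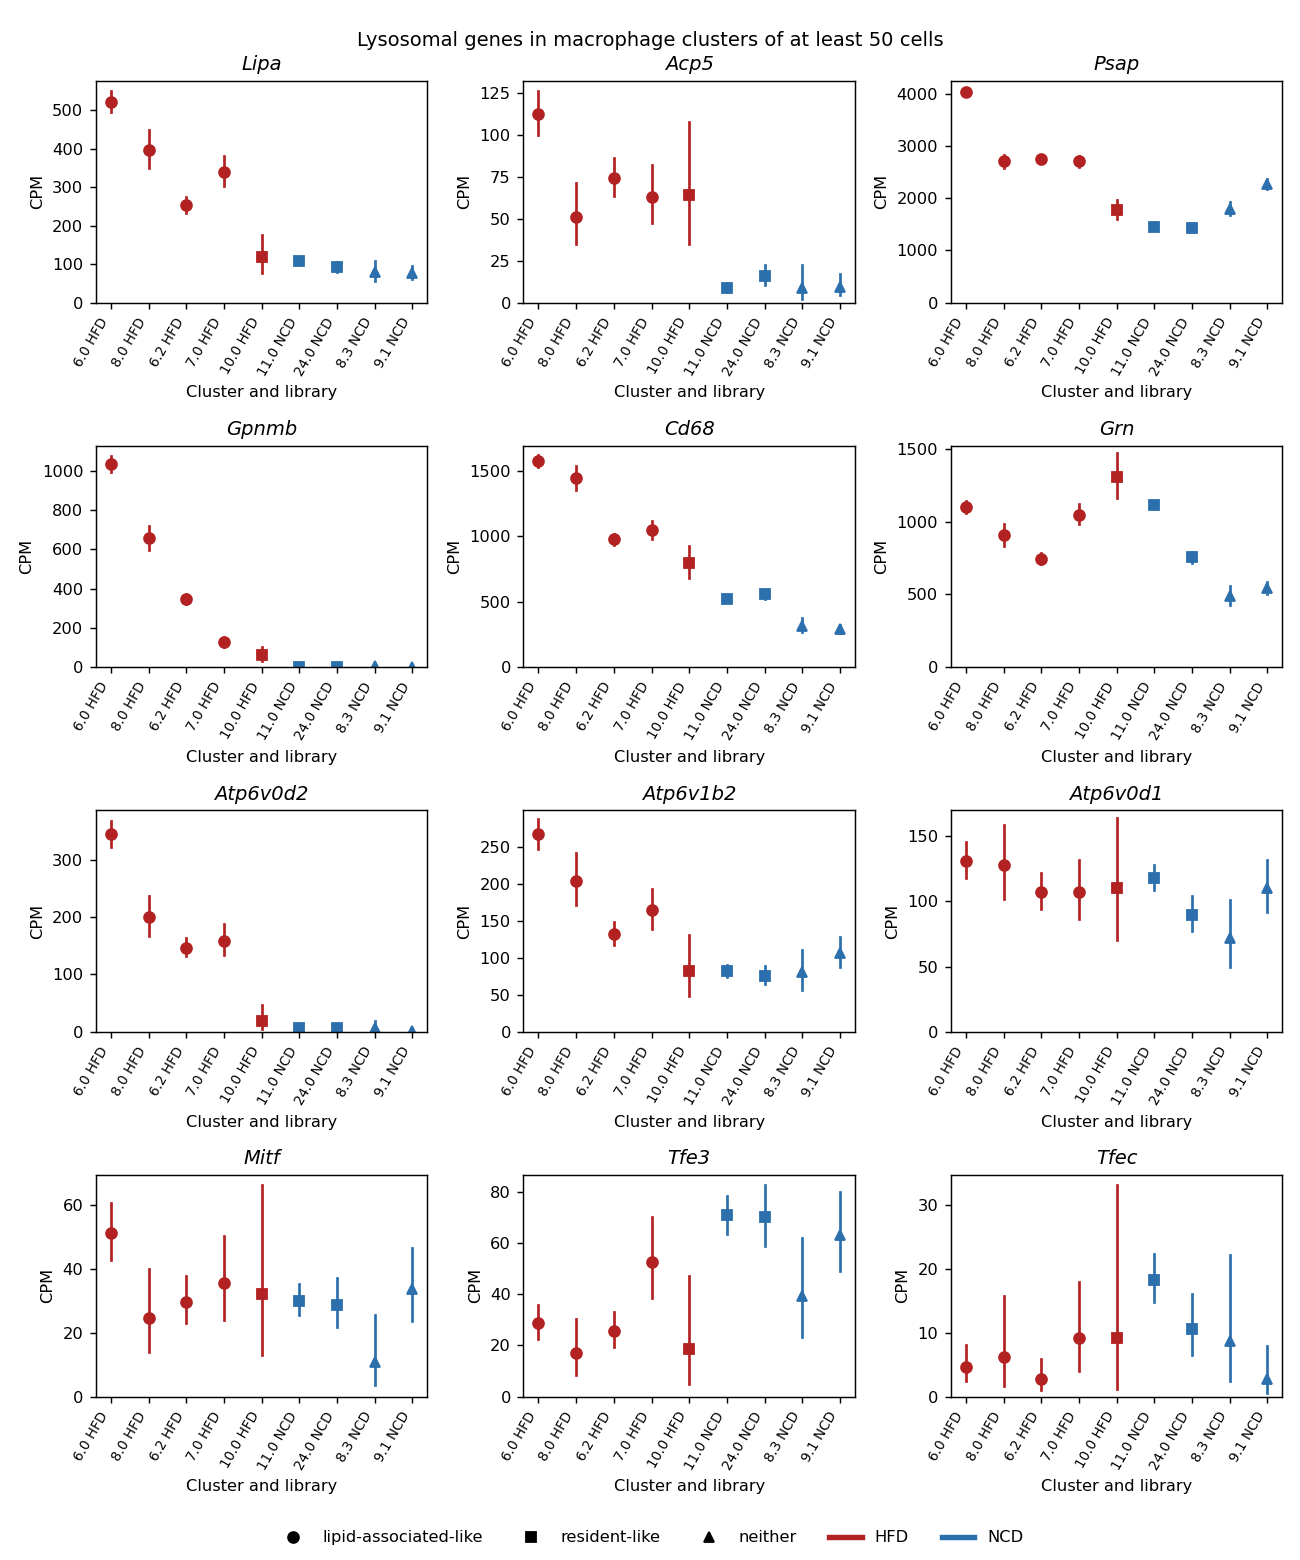
Points give the CPM of 12 lysosomal genes in each macrophage cluster with at least 50 cells in that library, with 95% counting intervals, HFD clusters in red and NCD clusters in blue, and the marker shape gives the state. Gpnmb, Atp6v0d2 and Lipa are highest in cluster 6.0 HFD, Grn and Atp6v0d1 do not follow that order, and Tfe3 is higher in NCD clusters 11.0, 24.0 and 9.1 than in 4 of the 5 HFD clusters, with an overlapping interval in cluster 7.0 HFD.

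Within the HFD library, lipid-associated-like macrophages were set against resident-like ones, a comparison inside 1 library. Of 34 members counted, 5 were past 2-fold higher in the lipid-associated-like cells (7.88% of all genes were) and 1 was past 2-fold lower (11.5%). Gpnmb gave 627 CPM in lipid-associated-like and 39.7 CPM in resident-like cells, a ratio of 15.8 (10.1 to 26.3). Atp6v0d2 gave 234 and 25.1 CPM (9.34, 5.33 to 18.1), and Lipa gave 389 and 136 CPM (2.87, 2.24 to 3.72). The other genes past 2-fold were Gla (2.37) and Atp6v1b2 (2.22), and Tfec was the lower one, with 30 UMIs at 4.73 CPM against 9 UMIs at 18.8 CPM. Cd68 (1.54), Gusb (1.75) and Acp5 (1.95) were higher within 2-fold. Progranulin went the other way, at 947 CPM in lipid-associated-like and 1438 CPM in resident-like HFD cells (ratio 0.66, 0.61 to 0.71), and so did Lamp1 and Lamp2 (both 0.74).

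In the few lipid-associated-like cells of the chow library, Gpnmb and Atp6v0d2 stood at levels whose intervals overlapped those of the high-fat library. The 22 NCD cells (16 of them in cluster 6.0) held 122059 UMIs, and 1 of the 22 had a barcode that also occurred in the HFD library. Of the 2116 HFD cells, 743 were in cluster 6.0 and 1017 in cluster 6.2, which held 0 NCD cells. The ratios below therefore compare pools of unlike cluster make-up. HFD cluster 6.0 alone, given above, lay higher than these NCD cells in Gpnmb, Atp6v0d2 and Psap and lower in Lipa. Gpnmb gave 627 CPM in the HFD cells of this state and 688 CPM (84 UMIs) in the NCD cells, a ratio of 0.91 (0.73 to 1.15). These 22 cells supplied 80.0% of the 105 Gpnmb UMIs of all 2241 NCD macrophages. Atp6v0d2 gave 234 CPM in the HFD cells and 221 CPM (27 UMIs) in the NCD cells, a ratio of 1.06 (0.73 to 1.61), and supplied 66.3% and 58.7% (43.2 to 73.0) of the d-isoform UMIs. Lipa and Acp5 were lower in the HFD cells, at 389 and 606 CPM (0.64, 0.51 to 0.82) and at 85.6 and 147 CPM (0.58, 0.36 to 0.99). Cd68 gave 1278 and 1294 CPM (0.99, 0.84 to 1.16), and Psap gave 3259 and 3793 CPM (0.86, 0.78 to 0.94). With 22 cells, differences smaller than these intervals were not detectable.

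Resident-like cells of the diets were compared in the same way. Comparing 156 HFD with 1923 NCD resident-like cells, 3 of 34 members were past 2-fold higher (9.57% of all genes were) and 0 were past 2-fold lower (7.33%). The member median log2 ratio was 0.30, against 0.17 over all macrophages. The 3 were Gpnmb at 39.7 CPM (19 UMIs) against 2.12 CPM (15 UMIs), Acp5 at 43.9 against 11.0 CPM, and Atp6v0d2 at 25.1 against 7.05 CPM. Of the other members past 2-fold over all macrophages, Cd68 had a ratio of 1.56 (1.40 to 1.73), Gla had 1.76 on 7 HFD UMIs, Gusb had 1.32, Lipa had 1.30, Atp6v1b2 had 1.11 and Tfec had 1.17. Laptm4a and Grn, within 2-fold, had 1.62 and 1.42. Tfe3 was lower in the HFD cells, at 39.7 CPM (19 UMIs) against 70.7 CPM (ratio 0.56, 0.34 to 0.89). Of the 156 HFD cells, 104 were in cluster 10.0, where stromal markers stood at 62.7% of their library level. Cluster 11.0 had 43 HFD and 1355 NCD cells and stromal markers at 6.54% and 2.92%. There Gpnmb had 5 UMIs at 24.2 CPM against 13 UMIs at 2.56 CPM, and Atp6v0d2 had 8 UMIs at 38.7 CPM against 36 UMIs at 7.09 CPM. Tfe3 there gave 58.0 against 70.7 CPM (0.82, 0.42 to 1.45), an interval that includes 1. How much of these low counts is free RNA from the many lipid-associated-like cells of the HFD library was not tested.

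Shares of macrophages with a UMI, after each cell was thinned to 1400 UMIs so that depth was equal, differed between the diets in the same direction as the levels for the genes given here. Gpnmb was detected in 30.4% (28.5 to 32.3) of HFD macrophages and 0.357% (0.154 to 0.702) of NCD macrophages, or 39.3% and 0.982% without thinning. Atp6v0d2 was detected in 19.4% and 0.892%, and Acp5 in 10.3% and 1.61%. Cd68 was detected in 70.9% of HFD and 44.0% of NCD macrophages, whereas Tfe3 was detected in 3.14% and 8.52%. Endothelial cells (median 1916 HFD and 3024 NCD UMIs, against 2084 and 3747 in macrophages) were set beside them. In them, after thinning, Gpnmb was detected in 10.6% of HFD and 0.310% of NCD cells, Atp6v0d2 in 2.51% and 0%, and Acp5 in 4.02% and 2.17%. The HFD macrophage shares of these 3 genes lay above those of endothelial cells. This class itself carried macrophage markers at 62.8% of library level in HFD and 67.9% in NCD, and in its NCD cluster 12.3 (80 cells) at 174%, and the NCD share of Gpnmb rests on 1 of 323 cells.

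In dendritic cells, which take up and present antigen, few of the genes differed between the diets. Of 28 members counted, 3 were past 2-fold higher in the HFD cells (10.7%, beside 7.99% of all 6843 counted genes) and 0 were lower (8.52%, or 16.5% of all genes in either direction). The 3 rest on few molecules: Gpnmb had 22 UMIs (36.4 CPM) against 0 in NCD dendritic cells, Acp5 had 18 (29.8 CPM) against 29 (14.1 CPM), and Mitf had 9 (14.9 CPM) against 8 (3.89 CPM). Free macrophage RNA was estimated at 39.7 CPM for Gpnmb in HFD dendritic cells, which is 109% of the observed level, but at 18.9% for Acp5 and 17.8% for Mitf. The median log2 ratio was 0.35 over the counted members and -0.07 over all genes, but the member median was -0.05 with the library profile subtracted, 0.11 with doublets kept and 0.13 in clusters with little free RNA. The groups by role summed to 4809 CPM in HFD and 4839 CPM in NCD dendritic cells for the hydrolases, and to 1726 and 1299 CPM for the membrane proteins. The pump genes summed to 230.09 CPM in HFD and 230.07 CPM in NCD dendritic cells.

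As a class, dendritic cells stood apart in the level of certain hydrolases in both libraries, though for Ppt1 this did not hold in every cluster. Gm2a, which lifts gangliosides and lipid antigens out of membranes, gave 1480 CPM in HFD and 1209 CPM in NCD dendritic cells, against 325 and 177 CPM in macrophages. Ppt1, which strips palmitate from proteins, gave 343 and 294 CPM in dendritic cells, against 86.8 and 84.0 CPM in macrophages. Both were highest in dendritic cells among the 6 classes with at least 50 cells in each library. Psap gave 2269 CPM in HFD and 2641 CPM in NCD dendritic cells. Ppt1 was uneven among the clusters, with 516 CPM in cluster 19.0 of the HFD library, and 665 and 17.2 CPM in clusters 19.1 and 21.1 of the NCD library. Xcr1 was among the leading genes of clusters 19.0 and 19.1, and Cd209a among those of cluster 21.1. Cluster 19.0 held 42.5% of HFD dendritic cells, and clusters 19.1 and 21.1 held 28.8% and 28.2% of NCD dendritic cells, so the class was not made of the same clusters in both libraries. Among the membrane proteins, Laptm5 gave 555 and 574 CPM, and Laptm4a gave 268 CPM in HFD and 143 CPM in NCD dendritic cells (ratio 1.88, 1.54 to 2.28). Free progenitor RNA was expected to give 41.1% of that HFD level of Laptm4a, and its log2 ratio was 0.91 before and 0.39 after subtraction. The leading pump genes were Atp6ap1 (79.5 and 73.4 CPM) and Atp6v0d1 (54.6 and 56.9 CPM). Of the MiT factors other than Mitf, Tfe3 gave 28.1 and 32.6 CPM, Tfeb gave 24.8 and 17.5 CPM, and Tfec had 0 UMIs in both.

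In progenitors, 8 of 32 counted members were past 2-fold higher in HFD cells (25%, beside 5.34% of all 8094 counted genes) and 0 were lower (4.42%, or 9.76% of all genes in either direction). Their median log2 ratio was 0.42, against -0.21 over all counted genes. On total UMIs the genes used for median-of-ratios scaling lay at a log2 ratio of -0.20 in progenitors and -0.05 in macrophages and in dendritic cells. Median-of-ratios scaling takes that offset out and so raised the ratios, and the progenitor members then had a median of 0.62. The 8 genes were Atp6v0d2, Acp5, Cd68, Laptm5, Gm2a, Lipa, Hexa and Gpnmb, most of them genes abundant in macrophages. Cd68 gave 130 CPM in HFD and 12.1 CPM in NCD progenitors (ratio 10.7), and Laptm5, a lysosomal protein of blood cells, gave 81.9 and 8.18 CPM (10.0). Atp6v0d2 had 159 UMIs (21.0 CPM) against 2 UMIs (0.129 CPM). The level expected from free macrophage RNA was 102% of the HFD progenitor level for Cd68, 110% for Atp6v0d2, 58.9% for Laptm5, 54.2% for Gpnmb and 52.3% for Lipa. After this estimate was subtracted from both libraries, 3 of 30 counted members were past 2-fold, namely Acp5, Laptm5 and Gm2a, beside 3.73% of all genes higher under the same subtraction. In the HFD library Gm2a and Laptm5 were highest in dendritic cells (1480 and 555 CPM) and Acp5 in B cells (116 CPM). Free RNA from those classes was not subtracted.

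Acp5, Gm2a and Hexa were the progenitor differences with the smallest part expected from free macrophage RNA, at 16.6%, 16.9% and 24.5% of the HFD level. Acp5 gave 52.7 CPM (399 UMIs) in HFD progenitors and 1.80 CPM (28 UMIs) in NCD progenitors, a ratio of 29.2 (19.9 to 44.5). It was present in each of the 6 HFD progenitor clusters of at least 50 cells, at 14.1 to 70.9 CPM, against 0 to 4.16 CPM in the NCD clusters. In HFD cluster 5.1 (120 cells) it gave 70.9 CPM (47.5 to 102), an interval that includes the 66.2 CPM of the whole HFD library. There macrophage markers stood at 4.60% of their library level, and 6 of 8 T cell markers and 5 of 6 B cell markers were at 0. The larger cluster 1.1 (975 HFD cells) had macrophage markers at 53.6%, T cell markers at 38.8% and B cell markers at 71.5% of library. Among the other classes, B cells gave 116 CPM in HFD and 132 CPM in NCD, and T cells gave 94.8 and 63.7 CPM, the highest class levels of Acp5. How much progenitor Acp5 was free RNA of B and T cells was not tested. Gm2a gave 204 CPM in HFD and 80.6 CPM in NCD progenitors (2.54, 2.35 to 2.74). It was 342 CPM in HFD cluster 0.0, where macrophage markers stood at 30.8% and dendritic cell markers at 73.1% of library, but 86.9 and 132 CPM in clusters 5.0 and 5.1, against 57.1 to 100.1 CPM in the NCD clusters. Hexa gave 345 and 171 CPM (2.02, 1.91 to 2.13), and in clusters 5.0 and 5.1 it gave 284 and 499 CPM, against 143 to 226 CPM in the NCD clusters.

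**Figure D4:**
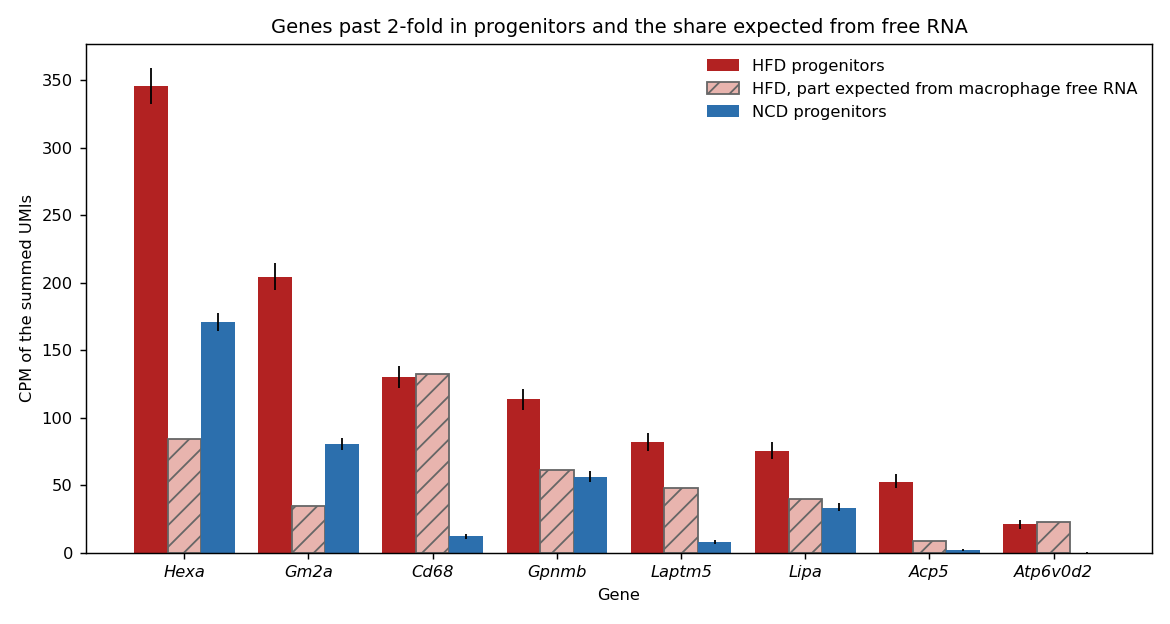
Bars give the CPM of the 8 genes past 2-fold in progenitors, with the observed HFD level in red, the part of it expected from free macrophage RNA hatched, and the NCD level in blue, and lines give 95% counting intervals. For Cd68 and Atp6v0d2 the expected part is as high as the observed HFD level (102% and 110%), and for Acp5 it is 16.6%.

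Gpnmb RNA was found in progenitors on chow too, where the level expected from free macrophage RNA was 0.164% of that observed. NCD progenitors gave 56.5 CPM of Gpnmb, above the 11.8 CPM of NCD macrophages. HFD progenitors gave 114 CPM, and 58.2 CPM in HFD against 56.8 CPM in NCD remained after free RNA was subtracted. Within progenitor cluster 22.0, present in both libraries with 70 HFD and 785 NCD cells, Gpnmb gave 59.4 CPM (21 UMIs) against 13.3 CPM (52 UMIs), a ratio of 4.45 (2.54 to 7.51), with macrophage markers at 5.86% and 2.50% of library. Cluster 5.1 of the HFD library had the highest progenitor levels of Gpnmb (196 CPM) and also of Mitf, with 105 CPM (76.1 to 142), against 17.0 to 45.5 CPM in the other HFD progenitor clusters and 7.01 to 22.9 CPM in the NCD clusters.

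The remaining progenitor members were within 2-fold. Psap gave 1351 CPM in HFD and 873 CPM in NCD progenitors, with 24.8% of the HFD level expected from free RNA. Laptm4a, a widely expressed lysosomal membrane protein, gave 1273 and 1120 CPM, and was highest in progenitors among the 6 classes in both libraries. Lamp1 gave 569 and 477 CPM. The pump apart from Atp6v0d2 was close to equal, with Atp6ap1 at 142 and 134 CPM, Atp6v0d1 at 92.4 and 88.2 CPM, and ratios from 0.83 (Atp6v1h) to 1.22 (Atp6v1b2). Mitf gave 32.6 CPM in HFD and 17.7 CPM in NCD progenitors (ratio 1.85, 1.55 to 2.20), Tfeb gave 12.8 and 13.3 CPM, Tfe3 gave 22.8 and 24.9 CPM, and Tfec had 3 UMIs in each. Smpd1 had the lowest ratio, at 28.7 and 40.02 CPM (0.72, 0.61 to 0.84). Gla, Atp6v0c and Tfec were not counted.

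Across the 6 classes, macrophages gave the highest level of 23 members in the HFD library and of 20 in the NCD library. For some of these the macrophage interval overlapped that of the second class. They were Gla, Glb1, Atp6v0c (2.16 CPM), Atp6v0d1, Atp6v1h, Mitf, Tfe3 and Tfec (5.62 CPM) in HFD. In NCD they were Glb1, Gusb, Mcoln1 and Atp6v1a. Cd68 gave 1239 CPM in HFD and 496 CPM in NCD macrophages, and the next class, dendritic cells, gave 242 and 180 CPM. Grn was next highest in endothelial cells, at 323 and 321 CPM, of which 315 and 183 CPM were expected from the class-wide level of macrophage markers. In the NCD library those markers stood at 174% of library in endothelial cluster 12.3 (80 cells) and 3.27% in cluster 12.0 (223 cells). The 183 CPM therefore describes neither cluster, and free RNA cannot be told from mixed cells there. Endothelial cells gave the highest level of the sialidase Neu1, at 69.7 CPM in HFD and 66.3 CPM in NCD, though its HFD interval overlapped that of macrophages. Scarb2 was highest in progenitors, at 144 and 93.6 CPM, and in the NCD library its interval overlapped that of endothelial cells. Mitf in HFD macrophages and progenitors (38.5 and 32.6 CPM) had overlapping intervals, whereas in the NCD library macrophages (29.7 CPM) stood above progenitors (17.7 CPM).

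**Figure D5:**
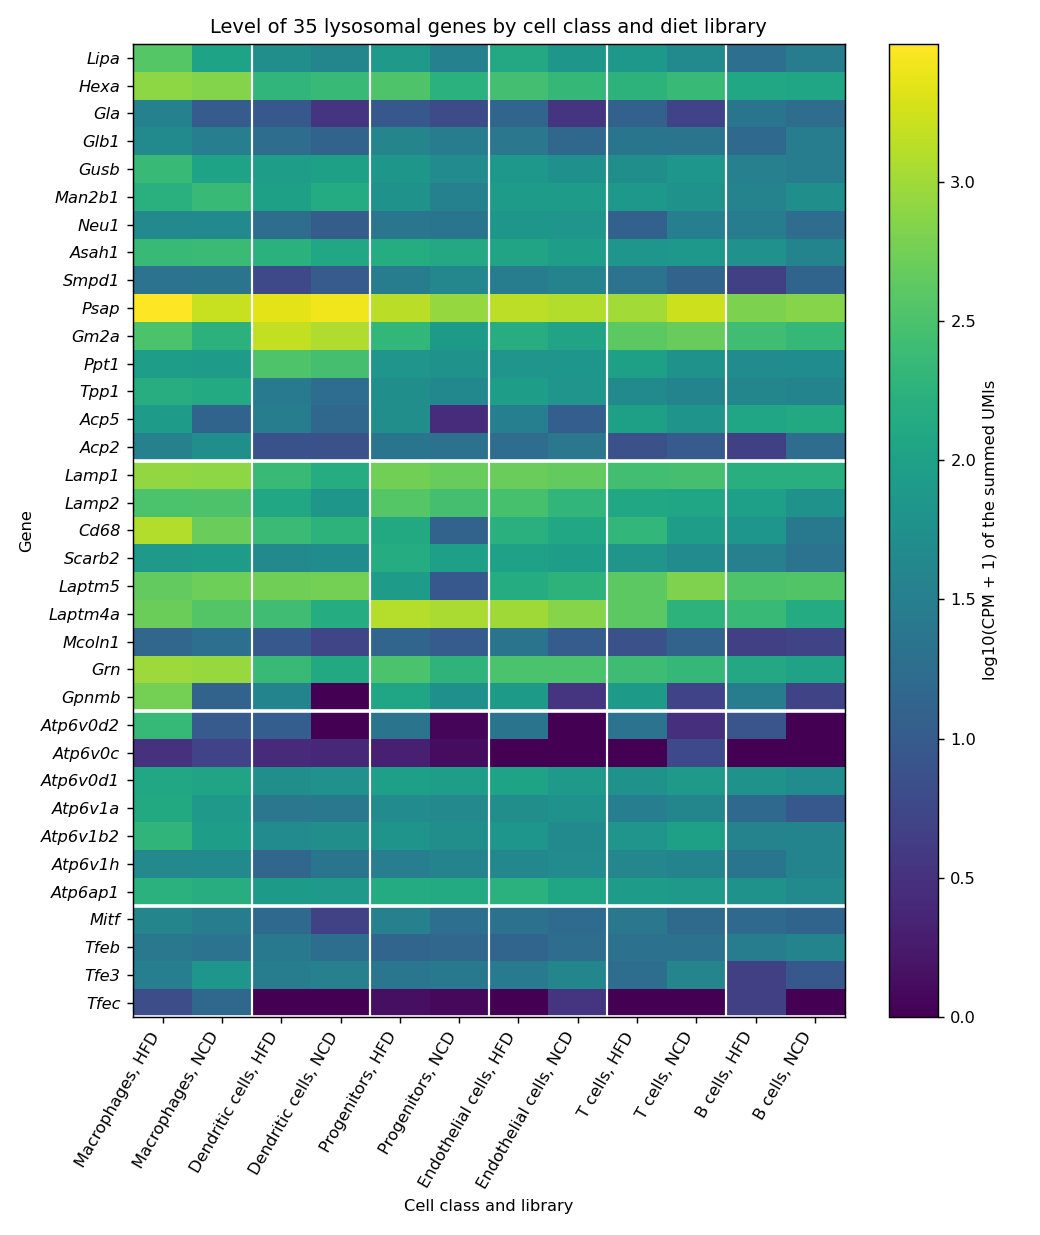
Colour gives log10(CPM + 1) of each of the 35 genes (down the page, white lines between roles) in 6 cell classes, with HFD left of NCD in each. Macrophages are highest for most genes, Gm2a and Ppt1 are highest in dendritic cells, Laptm4a in progenitors, and the NCD columns of Gpnmb are dark except in progenitors and macrophages.

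A further 104 genes of the same pathway, none of them members, were taken from lists of the organelle's components. In macrophages, 2 of 11 counted further pump subunits were past 2-fold higher in HFD (9.55% of all counted genes were, and 10.4% were past 2-fold lower), Tcirg1 (the a3 isoform of V0, 67.0 against 23.5 CPM) and Atp6v1c1 (96.0 against 47.1 CPM), and 0 were lower. All 11 had a ratio above 1, with log2 ratios from 0.045 and a median of 0.49, and with the members 16 of 17 counted subunits did. The median log2 ratio over all counted macrophage genes was -0.07. The share of all genes with a ratio above 1 is not given here, so these counts have no baseline. Of 24 further hydrolases and cofactors 4 were higher and 0 lower, among them the exonuclease Pld3 (305 against 84.8 CPM). Of 16 further membrane proteins 3 were higher, among them the tetraspanin Cd63 (2090 against 821 CPM) and the peptide transporter Slc15a3 (139.8 against 50.1 CPM). The channel Tpcn1 was lower, at 25.9 against 53.1 CPM. Of 9 genes for sorting of hydrolases 4 were higher, including Igf2r, the cation-independent mannose 6-phosphate receptor, with 392 UMIs (56.5 CPM) in HFD macrophages against 21 UMIs (2.37 CPM) in NCD macrophages. Regulators of the MiT factors gave 0 of 13 in either direction, and autophagy genes gave 0 of 15 higher and 2 of 15 lower (Uvrag and Ulk1).

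The same lists were counted in the other classes. In dendritic cells 0 of 11 further pump subunits and 5 of 18 hydrolases were higher, with 1 hydrolase lower, and all but Dnase2a of these 6 lay below 50 CPM. Over all counted genes of the class 7.99% were past 2-fold higher and 8.52% lower. The membrane protein Cd63 gave 531 CPM in HFD and 125 CPM in NCD dendritic cells (ratio 4.25, 3.60 to 5.03), while 2 of 10 in its list were lower. Free RNA was expected to give 144 CPM of the HFD level of Cd63 if it came from macrophages and 187 CPM if from progenitors, against 10.3 and 19.7 CPM in NCD, and subtracting either alone left ratios of 3.58 and 3.54. Sorting genes gave 0 of 5 and autophagy genes 0 of 11 in either direction, and MiT regulators gave 1 of 13 in each. In progenitors 1 of 12 pump subunits, 3 of 21 hydrolases, 1 of 14 membrane proteins and 1 of 14 MiT regulators were higher, and sorting (8) and autophagy (14) genes gave 0. Over all counted genes 5.34% were higher. The hydrolase genes were Pld3 (108 against 38.0 CPM), cathepsin A (Ctsa, 120.4 against 58.5 CPM) and Dnase2a (34.9 against 15.5 CPM). With free macrophage RNA subtracted their ratios were 2.24 (Pld3), 1.55 (Ctsa) and 1.80 (Dnase2a). None of the 83 counted pathway genes in progenitors was past 2-fold lower.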

How the data were processed

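Stromal vascular cells of epididymal fat were profiled with a droplet 3′-end single-cell kit, 1 library per diet, per the labels' protocols. The authors deposited raw UMI counts per gene and barcode, made with Cell Ranger against mm10; Seurat is also named, both per the submitters' processing notes, which give no version. Filtering, normalization and clustering by the authors are not part of these counts.

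Barcodes with at least 500 genes, 1000 UMIs and at most 20% mitochondrial UMIs were kept. Doublets were called per library with Scrublet (scanpy 1.11.5); its own threshold marked 0 HFD and 182 NCD barcodes, so the top 5% of HFD scores (339) were removed. Cells were clustered by the Leiden method on 2000 variable genes without the members (54 clusters) and named from markers raised 1.5-fold. Names are rebuilt here and can differ from the study's. Counts were summed per class and library and given as CPM, which for 3′ UMIs need no division by length, with exact Poisson, conditional binomial or Clopper-Pearson 95% intervals. A gene was counted from 10 CPM in either library. A 0 was set to 3 UMIs per library for a bound. With 1 library per diet no test was run. Free RNA was estimated per class and library as the median ratio of marker CPM to their level in the source class, which would include any mixed cells. Thinning used 1400 UMIs. The intervals were tested on simulated counts. The free RNA estimate was checked only on a noise-free mixture whose marker genes were absent from the receiving profile. Such a mixture returns its share by construction, so markers expressed in the class and several source cell types were not covered.

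The members, marker lists and pathway lists were chosen with earlier results of these data known. All 35 members are accounted for. Values are printed for members past 2-fold from 50 CPM, for the 2 highest of each role, and for the MiT factors. Other genes named were chosen after their values were seen. The values of 1 pathway gene are not reported here. Gene starts and ends came from GENCODE vM21 and promoters from RefSeq (GRCm38.p6). The alternatives covered scaling, cell filters, doublets, clustering, class naming, free RNA, thinning, the CPM minimum and the fold threshold.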

Additional observations from a re-analysis of the deposited data

How the results depend on the processing

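No paired analysis was possible because each diet has 1 library. In macrophages, 107 of 120 values of the 10 members past 2-fold stayed past it over the alternatives, 12 came short of it and 1 reversed. The 2 lower members became 1 with the stricter cell filter, with classes from marker scores, in clusters with little free RNA and at 50 CPM. The median log2 ratio of 0.17 became 0.0416 after thinning. In resident-like clusters alone, an alternative chosen after seeing the data, 3 members were higher and 0 lower, the median was 0.30, and Tfec reversed to a log2 ratio of 0.23.

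In dendritic cells 24 of 30 values stayed past 2-fold. The 3 higher members became 5 without mitochondrial and ribosomal genes in the totals, with the members among the clustering genes, in clusters with little free RNA, after thinning and with no CPM minimum. They became 7 with classes from marker scores, 1 with the library profile subtracted, 0 at 50 CPM and 9 at 1.5-fold. The 0 lower members became 1 with cells weighted alike, with doublets kept, with the library profile subtracted and at 1.5-fold. The median of 0.35 ranged from -0.05 with the library profile subtracted to 0.50 with classes from marker scores. With 604119 HFD UMIs in this class, the counts there rest on few molecules.

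In progenitors 70 of 84 values stayed past 2-fold. The 8 higher members became 3 with the library profile or the macrophage profile subtracted, 4 in clusters with little free RNA and 13 at 1.5-fold. The median of 0.42 became 0.62 with median-of-ratios scaling, 0.18 with the library profile subtracted, 0.15 with the macrophage profile subtracted and 0.62 at 50 CPM. Gpnmb reversed to a log2 ratio of -0.022 with the library profile subtracted. Except where the alternative itself removes cells, genes or free RNA, the cause was not tested.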

Other observations

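Within HFD macrophages thinned to 1400 UMIs, Atp6v0d2 and Acp5 were each detected in a larger share of the cells with a Gpnmb UMI than of those without. Atp6v0d2 was detected in 33.8% (30.3 to 37.4) of 696 cells with a Gpnmb UMI and in 13.2% (11.6 to 14.9) of 1594 cells without. Acp5 was detected in 16.8% (14.1 to 19.8) of cells with Gpnmb and in 7.40% (6.17 to 8.80) of cells without. Between Acp5 and Atp6v0d2 themselves the shares were closer, at 13.3% (10.2 to 16.8) of 445 cells with Atp6v0d2 and 9.54% (8.24 to 10.97) of 1845 without, and these intervals overlapped. Cells are not replicates, and these shares describe this library. They pool all HFD macrophage clusters, and shares within a cluster were not tested.

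The 22 lipid-associated-like NCD cells supplied 16.4% of the Acp5, 32.9% of the Atp6v0d2 and 7.91% of the Lipa UMIs of NCD macrophages, but 1.00% of those of Tfe3 and 1.12% of those of Grn.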
